A study of Mus musculus with 16 samples.

Results

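The comparison set lacZ+ cells, sorted as astrocytes, against lacZ- cells, sorted as neurons, from the same mouse neocortex, over both genotypes of the study at once. It rested on 10 of 16 RNA-seq libraries. Libraries were taken if their labels gave a group and if at least 60% of reads, and at least 1000000 reads, aligned uniquely, limits that the study named for its embryonic libraries. For the present 16 libraries the study itself removed 5, which it did not name, by their place in a principal component analysis or by poor correlation of replicates. That left 6 lacZ+ libraries (Eed+/+ replicates 1, 2, 4 and 5 and Eed-/- replicates 2 and 5) and 4 lacZ- libraries (Eed+/+ replicate 1 and Eed-/- replicates 1, 2 and 3). Each library came from 1 animal, so the spread between libraries holds that between animals together with that of sorting and library preparation. The remaining 6 libraries lay outside the limits, 5 of them with a labelled group and 1 with labels that named both cell types.

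All animals were labelled as strain CD1, which the study describes as a mixed C57BL/6 and CD1 background, and were taken at postnatal day 4. They carried MADM cassettes on chromosome 7, Emx1-Cre and the XGFAP-lacZ transgene. MADM (mosaic analysis with double markers) labels sparse cells by recombination between homologous chromosomes, and Emx1-Cre starts it in the dorsal forebrain lineage that makes both cortical neurons and astrocytes. Only green (GFP+) cells were used, and these carry 2 paternal copies of chromosome 7 in both genotypes. In control-MADM mice the green cells were Eed+/+. In Eed-MADM mice they were Eed-/-, without a core subunit of Polycomb repressive complex 2, while most cells around them kept 1 working copy. The transgene places lacZ under the human GFAP promoter, so a cell without lacZ activity is defined by a signal that it lacks, and lacZ- cells can include glia or progenitors that do not express the transgene.

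Astrocytes of the neocortex arise from radial glia after neurogenesis and then divide locally during the first postnatal weeks. They clear glutamate and potassium, carry water channels at their endfeet, supply cholesterol and other lipids, and secrete matrix and proteins that organize synapses. Neurons of the same lineage stop dividing before they mature and are recognized by RNA-binding proteins, cytoskeletal proteins, ion channels and synaptic proteins. A comparison of both sorts can be read against these roles, and the genes below are ordered by them.

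Gene reads per library numbered between 994077 and 3178529 (median 1994280 in lacZ+ and 1702830 in lacZ- libraries), and between 60.5% and 76.6% of reads aligned uniquely. The number of genes with a read ranged from 11433 to 17586 in lacZ+ libraries and from 16894 to 18064 in lacZ- libraries, so 5 of the 6 lacZ+ libraries detected fewer genes than any lacZ- library. All 4 lacZ- libraries and 3 lacZ+ libraries belonged to the first run of consecutive library numbers, and the other 3 lacZ+ libraries to the second. The median Spearman correlation over the genes tested was 0.733 between lacZ+ libraries, 0.838 between lacZ- libraries and 0.765 between a lacZ+ and a lacZ- library. Levels below are TMM-scaled read counts per 1000000 gene reads (CPM), and differences are log2 values, lacZ+ minus lacZ-, with their standard error.

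The 4 genes used by the study to mark the sorts were examined first. Aqp4, the water channel of astrocyte endfeet (ENSMUSG00000024411.9, chr18:15389496-15410982, GRCm38, minus strand), stood between 983 and 2769 CPM in lacZ+ libraries (median 1586) and at 498, 659, 682 and 432 CPM in lacZ- libraries, Eed+/+ replicate 1 first. The sorts did not overlap, and the means were 1721 ± 647 (SD, n = 6) and 568 ± 122 (SD, n = 4) CPM. Gfap, the intermediate filament whose human promoter drives the transgene (chr11:102887336-102900912, minus strand), stood between 246 and 1032 CPM in lacZ+ libraries (median 553) and at 171, 284, 363 and 281 CPM in lacZ- libraries. Here the sorts overlapped, since the lowest lacZ+ library lay below 3 of the 4 lacZ- libraries.

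Lrrn3, a leucine-rich repeat membrane protein that the text of the study names as a neuron marker where a legend names Lrrn2 (chr12:41451668-41486431, minus strand), stood between 4.45 and 43.2 CPM in lacZ+ libraries (median 20.8) and at 72.0, 57.5, 47.5 and 62.6 CPM in lacZ- libraries. Npm1, a nucleolar chaperone of ribosome assembly and the other neuron marker (chr11:33152287-33163206, minus strand), stood between 151 and 216 CPM in lacZ+ libraries (median 207) and at 329, 394, 443 and 314 CPM in lacZ- libraries. For both genes all lacZ- libraries lay above all lacZ+ libraries. The 4 genes thus lay in the direction of their sort, with Gfap the one that overlapped.

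The log2 difference was 1.63 ± 0.35 (SE) for Aqp4, 1.49 ± 0.41 for Gfap, -1.59 ± 0.62 for Lrrn3 and -0.84 ± 0.24 for Npm1. Adjusted over all genes by edgeR's quasi-likelihood test, none passed (adjusted p 0.288, 0.315, 0.496 and 0.329). DESeq2 on the same libraries and terms passed Aqp4 (adjusted p 0.00073), Gfap (0.023) and Npm1 (0.029), and not Lrrn3 (0.22). Taken one at a time, the two-sided exact permutation test over libraries gave 0.00952 for Aqp4, Lrrn3 and Npm1, the smallest p that 6 against 4 libraries allow, and 0.114 for Gfap. The study judged its sorts by these genes on libraries of this series, so they are not independent evidence of the direction.

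**Figure D1:**
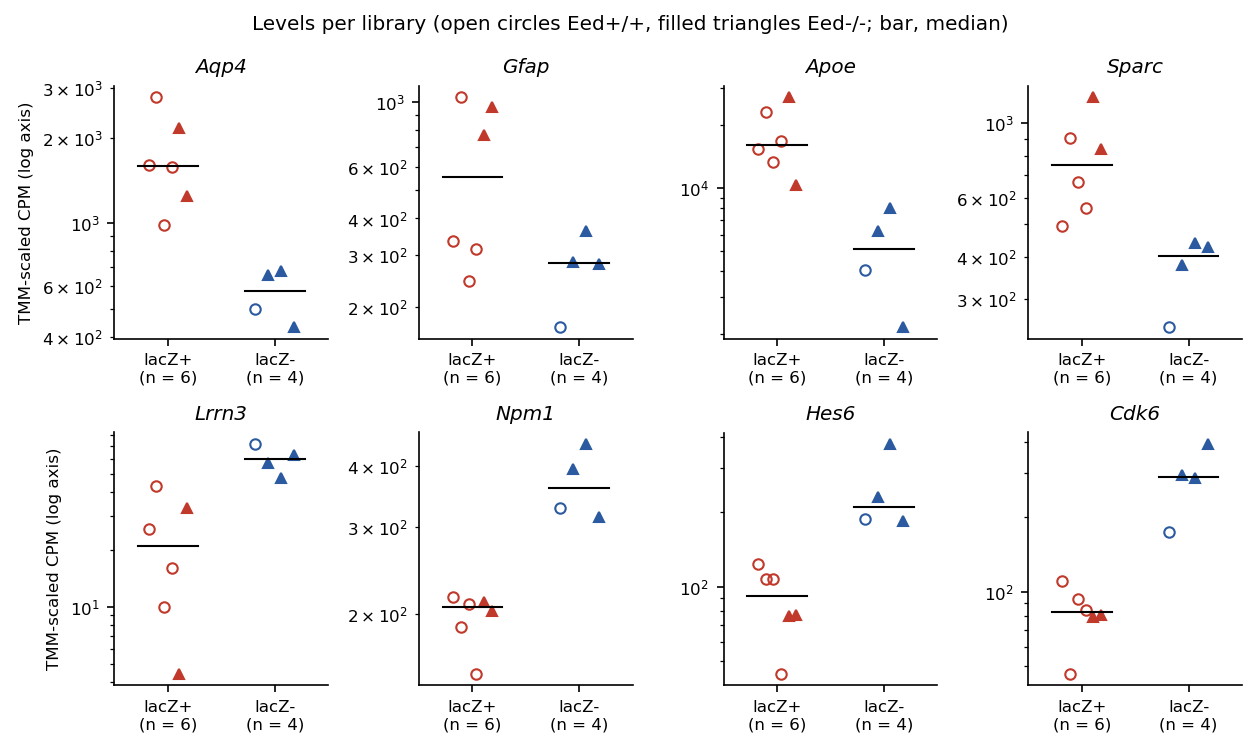
Levels of 8 genes per library in TMM-scaled CPM on log axes, lacZ+ libraries in red (n = 6) and lacZ- libraries in blue (n = 4), open circles for Eed+/+ and filled triangles for Eed-/-, with a bar at the median. All panels but Gfap show 2 sets of points that do not overlap: Aqp4, Apoe and Sparc with lacZ+ on top, and Lrrn3, Npm1, Hes6 and Cdk6 with lacZ- on top.

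Across the transcriptome, with 1 cell type effect and genotype as a covariate, edgeR called 0 of 11650 genes tested at an adjusted p of 0.05 (0%). At an unadjusted p under 0.05 there were 969 genes, 596 higher in lacZ+ and 373 higher in lacZ- cells, the smallest adjusted p was 0.288 and the biological coefficient of variation was 0.678. DESeq2 called 180 genes higher in lacZ+ cells (1.55% of those with an adjusted p) and 67 higher in lacZ- cells (0.577%), and limma-voom, run with weights for library quality, called 1. In 201 genes (1.73%) every lacZ+ library lay above every lacZ- library, and in 223 genes (1.91%) every lacZ- library lay above every lacZ+ library. Of the DESeq2 calls, 100 of the 180 and 20 of the 67 were among these genes. The DESeq2 calls depended on single libraries: without Eed-/- lacZ+ replicate 2 they numbered 24 higher in lacZ+ and 1 higher in lacZ-, and without Eed-/- lacZ+ replicate 5 they numbered 458 and 501. Those higher in lacZ+ also numbered 21 without the Eed+/+ lacZ- library and 106 without Eed+/+ lacZ+ replicate 2. Those higher in lacZ- numbered 7, 15 and 11 without Eed-/- lacZ- replicates 1, 2 and 3, and 125 without Eed+/+ lacZ+ replicate 5. Since edgeR called no gene, single genes below are given by their levels, and "wholly higher" means only that no library of one sort overlapped the other.

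The genes wholly higher in lacZ+ cells drew more reads than those wholly higher in lacZ- cells. Their median level over the 10 libraries was 111 CPM for the 201 lacZ+ genes and 31.2 CPM for the 223 lacZ- genes, beside 37.1 CPM over all genes tested. Protein-coding genes made up 197 of the 201 and 213 of the 223. A positive difference was found in 42.0% of all genes tested, and the direction of all genes also moved with their level. The median log2 difference was -0.15 over all genes tested, -0.40 in the 2913 genes with the lowest levels (3.18 to 16.9 CPM) and 0.01 in the 2913 genes with the highest (76.5 CPM and above). A list of low genes with a negative median therefore has to be read against those values, and the part of detection in it was not tested.

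**Figure D2:**
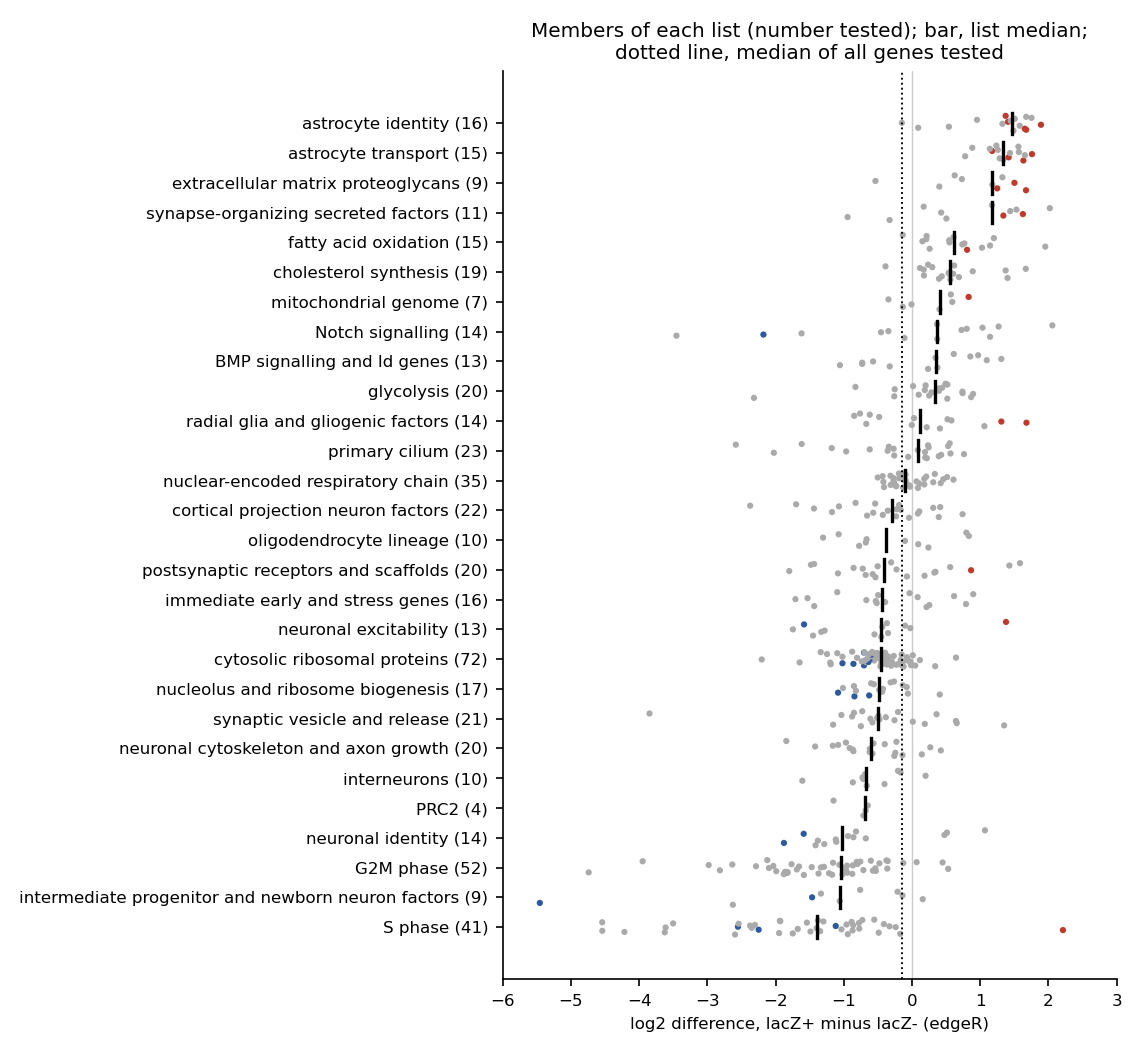
Log2 difference, lacZ+ minus lacZ-, of every tested member of each list with at least 3 tested members, ordered by the list median (black bar). Red points are genes wholly higher in lacZ+, blue points genes wholly higher in lacZ- and grey points overlap, and the dotted line marks the median of all genes tested (-0.15); astrocyte identity lies at the top (median 1.47) and S phase at the bottom (-1.40).

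Genes of astrocyte identity lay higher in lacZ+ cells nearly as a body. All 16 members were tested and 15 had a positive difference, with a median of 1.47. Of these, 5 were wholly higher in lacZ+ cells (1.73% over all genes tested) and 12 were DESeq2 calls, all higher in lacZ+ (1.55% over all genes). Apoe, the main lipid carrier made by astrocytes, drew the most reads of them, with 10316 to 27102 CPM in lacZ+ libraries (median 16060) and 4075, 6211, 8045 and 2167 CPM in lacZ- libraries. The lowest lacZ- value, in Eed-/- replicate 3, was the farthest below the lowest lacZ+ library. Aldoc, the astrocyte form of the glycolytic enzyme aldolase, stood between 1110 and 3372 CPM (median 2692) against 718, 854, 1036 and 453 CPM. Aldh1l1, a folate enzyme widely used as an astrocyte marker, stood between 256 and 966 CPM (median 572) against 187, 210, 225 and 147 CPM. Cst3, a secreted protease inhibitor, and Mfge8, a secreted bridging protein for phagocytosis, overlapped between the sorts with differences of 1.45 ± 0.46 and 1.51 ± 0.42.

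Transporters and channels of astrocytes followed the same pattern. All 15 tested members had a positive difference (median 1.34). Of the 15, 4 were wholly higher in lacZ+ cells (1.73% over all genes tested) and 8 were DESeq2 calls (1.55%). Glul, the enzyme that turns glutamate into glutamine, stood between 347 and 978 CPM (median 491) against 259, 207, 186 and 214 CPM. The glutamate transporters Slc1a3 and Slc1a2 differed by 1.29 ± 0.38 and 1.34 ± 0.38, and for both the sorts overlapped. Slc1a3 reached 2690 CPM in 1 lacZ- library, above the lowest lacZ+ library at 2184 CPM.

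Matrix and secreted proteins lay higher as well. Of 9 tested proteoglycan and matrix-linker genes, 8 had a positive difference (median 1.18). Of the 9, 3 were wholly higher in lacZ+ cells (1.73% over all genes tested) and 5 were DESeq2 calls (1.55%). Ncan, which codes for the perineuronal proteoglycan neurocan, stood between 3668 and 10862 CPM (median 7623) against 2041, 2925, 3506 and 1843 CPM. Bcan (brevican) stood between 1313 and 4289 CPM (median 2813) against 805, 908, 934 and 752 CPM, which left a clear gap between the sorts. Hapln1, which links such proteoglycans to hyaluronan, reached 43.5 to 73.2 CPM against 28.5, 18.9, 20.4 and 13.9 CPM, while Cspg5 and Sdc4 overlapped with differences of 1.18 ± 0.35 and 1.32 ± 0.39.

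Of 11 tested factors by which astrocytes organize synapses, 9 had a positive difference (median 1.17). Of the 11, 2 were wholly higher in lacZ+ cells (1.73% over all genes tested) and 3 were DESeq2 calls (1.55%). Sparcl1 (hevin), which promotes excitatory synapses, stood between 1568 and 7466 CPM (median 3289) against 1036, 1342, 1556 and 1000 CPM. Sparc, its relative that opposes hevin, stood between 495 and 1194 CPM (median 753) against 247, 378, 440 and 427 CPM. Both members of this opposed pair were thus higher in lacZ+ cells. Chrdl1, which drives maturation of AMPA receptors, overlapped at 27.5 to 385 CPM against 25.4 to 53.1 CPM, and Gpc6, a glypican that recruits such receptors, differed by 1.53 ± 0.45.

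The lists of cholesterol synthesis and fatty acid oxidation had smaller medians. In cholesterol synthesis 18 of 19 tested genes had a positive difference, yet the median was 0.55, no gene was wholly higher and 1 was a DESeq2 call. That gene was Dhcr7, the last reductase of the pathway, at 245 to 1003 CPM (median 394) against 144, 263, 226 and 48.1 CPM. Hmgcs1 and Msmo1, earlier enzymes, differed by 0.56 ± 0.34 and 0.89 ± 0.39. In mitochondrial fatty acid oxidation 14 of 15 tested genes had a positive difference (median 0.61), with Cpt1a, the carnitine transferase of the outer membrane, wholly higher by a narrow margin (123 to 192 CPM against 50.9 to 123 CPM). Acadvl, the first dehydrogenase for long chains, was the DESeq2 call of this list with a difference of 1.95 ± 0.57. Acaa2 and Hadha differed by 1.20 ± 0.43 and 0.55 ± 0.29.

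Most nuclear genes of energy metabolism overlapped between the sorts. Of 20 tested glycolysis genes 16 had a positive difference (median 0.34), none was wholly higher and none was a DESeq2 call, and Aldoa and Ldhb differed by 0.74 ± 0.37 and 0.52 ± 0.36. The 35 nuclear genes of the respiratory chain had a median of -0.10, near that of all genes, with Cox4i1 at 0.21 ± 0.28 and Atp5b at 0.33 ± 0.30. Of 13 listed genes of the mitochondrial genome 7 were tested, with a median of 0.40. Of these mt-Co1, a cytochrome oxidase subunit, was wholly higher in lacZ+ cells at 4687 to 8255 CPM against 3022, 4631, 4391 and 2320 CPM, so the closest libraries stood at 4687 and 4631 CPM. mt-Rnr1, the small mitochondrial ribosomal RNA, stood between 9251 and 17306 CPM against 6614, 3747, 5121 and 8534 CPM, without overlap, and was a DESeq2 call higher in lacZ+ cells. Counting of uniquely aligned reads can lose reads of mitochondrial genes to nuclear copies.

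Factors of radial glia, from which astrocytes arise, did not move as a body. All 14 were tested, 8 had a positive difference and the median was 0.12. Ttyh1, a membrane protein that enhances Notch activity, was wholly higher at 941 to 2804 CPM (median 1831) against 558, 579, 618 and 579 CPM. Tnc, the matrix protein tenascin C, was wholly higher at 619 to 995 CPM against 382, 225, 217 and 528 CPM. Fabp7, the brain lipid-binding protein, overlapped at 3391 to 13553 CPM against 2252 to 6081 CPM. Ptprz1, a receptor phosphatase, and Nfia, a transcription factor that starts gliogenesis, differed by 0.58 ± 0.37 and -0.48 ± 0.33.

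Pathways that steer progenitors split by member. In Notch signalling 8 of 14 tested genes had a positive difference (median 0.37). Dll3, a ligand family member that acts inside neuronal precursors, was wholly higher in lacZ- cells at 167, 263, 256 and 109 CPM against 0 to 86.4 CPM (median 39.9). Nrarp, a target that damps the pathway, was a DESeq2 call in the other direction at 37.0 to 151 CPM against 13.5, 30.6, 41.7 and 9.28 CPM, with sorts that overlapped. The target Hes5 overlapped widely (170 to 1381 CPM against 313 to 543 CPM), as did Hey1 (difference 0.80 ± 0.33). In BMP signalling 8 of 13 tested genes had a positive difference (median 0.34), none was wholly higher in either sort, and the inhibitors of differentiation Id3 and Id2 differed by 0.97 ± 0.47 and 0.85 ± 0.40.

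**Figure D3:**
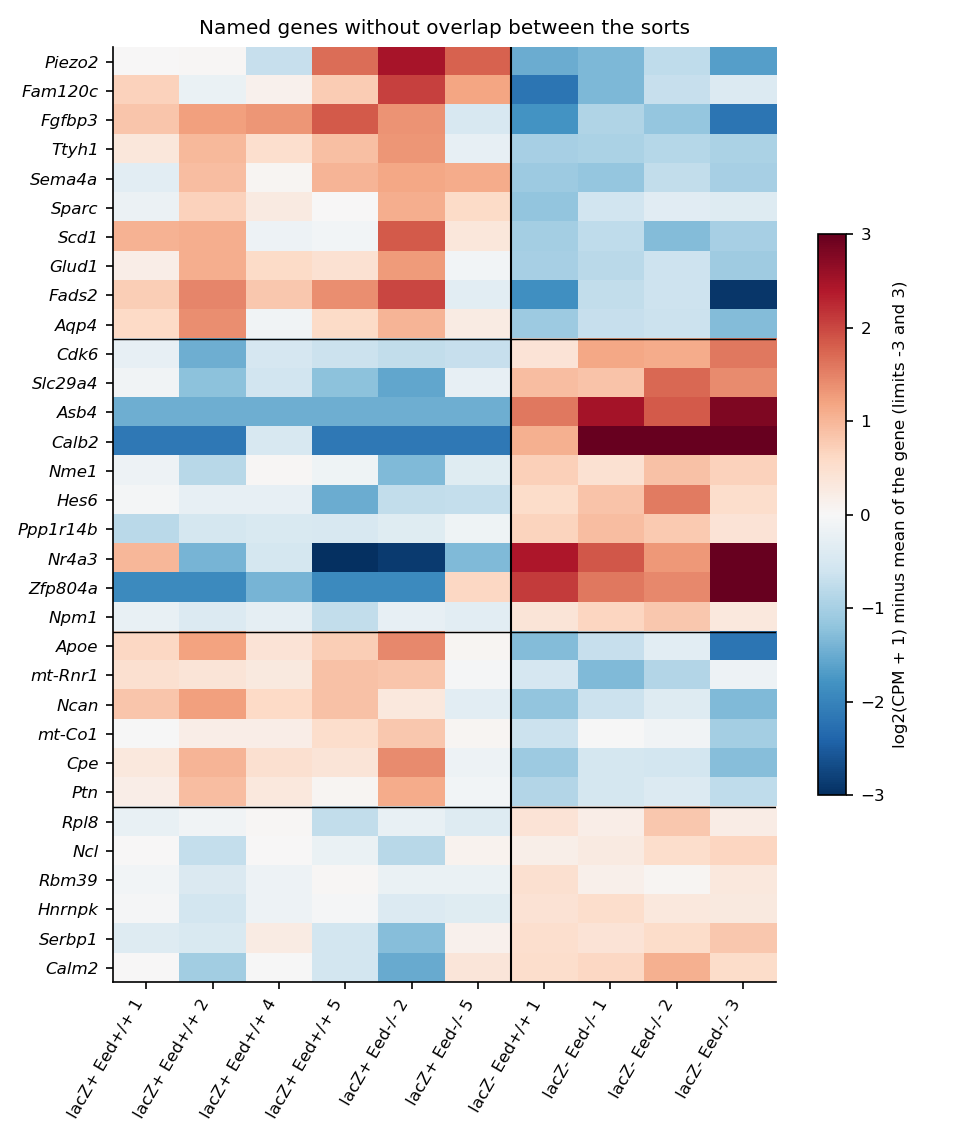
Levels of the 32 genes without overlap between the sorts that had the smallest p (10 in each direction, upper blocks) or the highest mean level in the higher sort (6 in each direction, lower blocks), as log2(CPM + 1) minus the mean of each gene over the 10 libraries, with colours limited to -3 and 3. Columns are libraries, the 6 lacZ+ libraries left of the line, and within each gene every library of the higher sort is redder than every library of the other.

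Ranked by p among the genes wholly higher in lacZ+ cells, a choice made after the values were seen, the first 10 were Piezo2, Fam120c, Fgfbp3, Ttyh1, Sema4a, Sparc, Scd1, Glud1, Fads2 and Aqp4. Fgfbp3, a secreted carrier of fibroblast growth factors, stood between 165 and 825 CPM (median 557) against 65.2, 123, 102 and 49.3 CPM (difference 2.46 ± 0.47). Fads2 and Scd1, desaturases that make polyunsaturated and monounsaturated fatty acids, stood at 350 to 1736 CPM against 122, 262, 281 and 56.8 CPM and at 110 to 444 CPM against 60.1, 72.0, 49.0 and 61.4 CPM. Glud1, which breaks down glutamate in mitochondria, stood between 986 and 2557 CPM against 525, 599, 681 and 503 CPM. These enzymes were outside the lists of cholesterol synthesis and fatty acid oxidation.

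Piezo2, a mechanically gated channel, reached 34.8 to 324 CPM against 19.7, 21.8, 33.5 and 17.4 CPM, and its difference of 2.87 ± 0.53 was the largest of the 10. Its highest values were in Eed+/+ replicate 5 and both Eed-/- libraries, and the lowest lacZ+ library was within 2 CPM of the highest lacZ- library. Sema4a, a membrane semaphorin, stood at 47.0 to 131 CPM against 26.9, 25.5, 34.4 and 29.0 CPM, and Fam120c at 25.7 to 125 CPM against 5.70, 10.9, 17.9 and 22 CPM. Among the genes wholly higher in lacZ+ cells with the highest mean CPM there were Cpe, a peptide-processing enzyme (3249 to 9514 CPM against 1680, 2502, 2436 and 1470 CPM), and Ptn, the growth factor pleiotrophin (3691 to 8460 CPM against 2125, 2690, 2939 and 2306 CPM).

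In the other direction the 10 genes with the smallest p were Cdk6, Slc29a4, Asb4, Calb2, Nme1, Hes6, Ppp1r14b, Nr4a3, Zfp804a and Npm1. Cdk6, a kinase that drives cells through G1, stood at 175, 294, 287 and 393 CPM in lacZ- libraries against 46.8 to 111 CPM (median 82.5) in lacZ+ libraries (difference -1.66 ± 0.35). Hes6, which promotes neuronal differentiation by opposing Hes1, stood at 187, 231, 375 and 184 CPM against 44.7 to 123 CPM (median 92.0). Calb2, the calcium buffer calretinin found in subsets of interneurons and Cajal-Retzius cells, stood at 8.29, 45.1, 53.8 and 36.5 CPM, and 5 of the 6 lacZ+ libraries had no read of it, the other being at 2.17 CPM. Slc29a4, a monoamine transporter, stood at 80.3, 76.4, 140 and 112 CPM against 13.4 to 38.3 CPM.

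Nme1, a nucleoside diphosphate kinase, and Ppp1r14b, a phosphatase inhibitor, differed by -1.26 ± 0.33 and -1.09 ± 0.29 between sorts that did not overlap. Nr4a3, an activity-induced nuclear receptor, stood at 63.2, 42.9, 28.6 and 104 CPM against 0 to 22.8 CPM. Zfp804a, a zinc finger gene, stood at 15, 10.2, 9.22 and 35.9 CPM against 0 to 4.75 CPM. Asb4 had 0 reads in the lacZ+ libraries and 83 reads over the lacZ- libraries (7.25, 14.6, 8.73 and 18 CPM). Set against 3 reads in the shallowest lacZ+ library (2.85 CPM), its mean of 12.1 CPM was at least 4.26-fold higher in lacZ- cells, a bound that covers counting error only. The low genes of this group rest on few reads.

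Ribosomal protein genes lay slightly lower in lacZ+ cells, and did so together. Of 72 tested members 67 had a negative difference, with a median of -0.46 beside -0.15 over all genes. Of the 72, 7 were wholly higher in lacZ- cells (1.91% over all genes tested) and 0 were called by either tool. Rpl8 stood at 940, 808, 1244 and 828 CPM in lacZ- libraries against 423 to 731 CPM in lacZ+ libraries, and Rps26 at 467, 399, 591 and 449 CPM against 201 to 368 CPM. Rps3 and Rps9, both among the members with the most reads, overlapped and differed by -0.41 ± 0.29 and -0.55 ± 0.27. Ribosomal protein genes have many processed pseudogenes, and unique alignment can lose a share of their reads that differs between genes.

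Nucleolar genes, which make ribosomes, followed. Of 17 tested members 16 had a negative difference (median -0.48) and Npm1, Ncl and Nop58 were wholly higher in lacZ- cells (1.91% over all genes tested). Ncl, the nucleolar protein nucleolin, stood at 562, 605, 723 and 785 CPM against 279 to 533 CPM, so the closest libraries of the sorts stood at 533 and 562 CPM. Nop58, a core protein of box C/D particles, stood at 147, 164, 186 and 156 CPM against 36.4 to 107 CPM. Of the 3, Npm1 was a DESeq2 call. RNA-binding proteins were also among the 6 genes wholly higher in lacZ- cells with the highest mean CPM there: Hnrnpk at 560, 602, 516 and 506 CPM against 282 to 406 CPM, Serbp1 at 499, 473, 520 and 622 CPM against 144 to 419 CPM, and Rbm39 at 747, 594, 555 and 667 CPM against 397 to 549 CPM. Calm2, which codes for calmodulin, stood at 423, 450, 607 and 429 CPM against 102 to 374 CPM.

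Cell cycle genes tended to lower levels in lacZ+ cells, with wide overlap for G2M. Of 41 tested S phase genes 40 had a negative difference (median -1.40), and of 52 tested G2M genes 49 had one (median -1.04). None of these passed in edgeR. The median over all genes tested was -0.15. Only 14 of 42 listed S phase genes and 15 of 52 G2M genes had a read in every lacZ+ library. In every lacZ- library all 42 and all 52 had a read. The part of detection in these medians was not tested. Hells, a chromatin remodeler of replicating cells, stood at 59.6, 49.5, 44.6 and 133 CPM in lacZ- libraries against 0 to 34.8 CPM in lacZ+ libraries. Pold3, a subunit of DNA polymerase delta, stood at 60.1, 48.8, 47.1 and 72.5 CPM against 12.5 to 38.9 CPM, and Ccne2, a cyclin of the G1 to S transition, at 14.5, 14.6, 13.6 and 18.6 CPM against 0 to 7.6 CPM. These 3 were the S phase genes wholly higher in lacZ- cells. Dtl, Ung, Gins2 and Blm were DESeq2 calls in that direction with overlapping sorts, for example Dtl at 32.1, 33.5, 12.6 and 77.1 CPM against 0 to 16.9 CPM. Nasp and Rrm2 differed by -0.77 ± 0.38 and -0.96 ± 0.71, and in G2M Cbx5 and Top2a differed by -0.38 ± 0.29 and -1.22 ± 1.41. No G2M gene was wholly higher in lacZ- cells or a DESeq2 call, and the highest G2M sum of the 10 libraries was that of Eed+/+ lacZ+ replicate 1 (5512 CPM, against 3300 to 4729 CPM in lacZ- libraries). The spread was wide within lacZ+ cells, where Top2a ran from 0 to 365 CPM against 173, 195, 198 and 361 CPM in lacZ- libraries.

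Uhrf1, which maintains DNA methylation at replication, was the exception of the S phase list. It was wholly higher in lacZ+ cells, at 273 to 1527 CPM (median 350) against 105, 95.3, 207 and 193 CPM, and was a DESeq2 call. In the 5 labelled libraries outside the alignment limits, scaled together with the others, it stood between 4536 and 16539 CPM, so its level moved with alignment, and the part of alignment in its difference was not tested. Without Uhrf1 the S phase genes summed to 533 to 2370 CPM in lacZ+ libraries and to 2098, 2300, 2328 and 2969 CPM in lacZ- libraries. The lowest sums, 540 and 533 CPM, were those of Eed+/+ replicate 5 and Eed-/- replicate 2, the lacZ+ libraries with the fewest genes detected (11433 and 12357) and the most Uhrf1 (1527 and 988 CPM).

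Promoters of the S phase genes were searched for the E2F motif, the element through which E2F factors switch on replication genes, because these genes lay together in 1 direction. The motif was taken as TTTCCCGC, TTTCGCGC, TTTGCCGC or TTTGGCGC on either strand, in windows of 250 bases before to 50 bases after the start of each gene (RefSeq, GRCm38.p6). Of 29 tested S phase genes with a window 12 held it (41.4%), beside 3 of 46 G2M genes (6.52%), 3 of 14 nucleolar genes (21.4%), 2 of 4 genes of Polycomb repressive complex 2 (50%), 4.98% of all genes tested, 2.60% of all 27025 genes in the table, 6.86% of the genes wholly higher in lacZ- cells and 6.04% of those wholly higher in lacZ+ cells. The other motifs searched were the NFI palindrome TGGCNNNNNGCCA, its single site TTGGC (also contained in TTTGGCGC), the sterol element TCACNCCAC, the E-box CAGATG, TTCAGCACC of the NRSF site, GCGCATGCGC of NRF1 and GTTNCCNNGGNAAC of RFX. The E2F motif was chosen for display after all 8 had been searched. A match describes these letters and is not evidence that a factor bound. The S phase list is itself made of replication genes, so its share describes the list and not a difference between the sorts. Of the 7 S phase genes named above as lower in lacZ+ cells by overlap or DESeq2, Hells, Pold3 and Dtl held a match, Blm and Ung held none, and Ccne2 and Gins2 were not in the table. The windows of the first 3 follow, each with its match in capitals, since they show the element beside genes that parted the sorts or were DESeq2 calls.
Hells (chr19:38930740-38931039, plus strand): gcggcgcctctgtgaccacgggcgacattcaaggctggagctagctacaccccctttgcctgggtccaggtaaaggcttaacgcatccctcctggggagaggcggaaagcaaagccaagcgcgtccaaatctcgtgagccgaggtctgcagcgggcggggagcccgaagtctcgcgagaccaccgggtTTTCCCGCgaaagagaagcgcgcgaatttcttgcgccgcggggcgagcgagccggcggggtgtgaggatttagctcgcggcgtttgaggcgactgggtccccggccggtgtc
Pold3 (chr7:100121453-100121752, minus strand): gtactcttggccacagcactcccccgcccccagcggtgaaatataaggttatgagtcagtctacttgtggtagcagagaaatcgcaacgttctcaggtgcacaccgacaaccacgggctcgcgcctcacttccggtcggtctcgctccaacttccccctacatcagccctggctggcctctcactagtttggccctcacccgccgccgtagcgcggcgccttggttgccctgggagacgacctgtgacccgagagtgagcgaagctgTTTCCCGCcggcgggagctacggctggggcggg
Dtl (chr1:191575495-191575794, minus strand): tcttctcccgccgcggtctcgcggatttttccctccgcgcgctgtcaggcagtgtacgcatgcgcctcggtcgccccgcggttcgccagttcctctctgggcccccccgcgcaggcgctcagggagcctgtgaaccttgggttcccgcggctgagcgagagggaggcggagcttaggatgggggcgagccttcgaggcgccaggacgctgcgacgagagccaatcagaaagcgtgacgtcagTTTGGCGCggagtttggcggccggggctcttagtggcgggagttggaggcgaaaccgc

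Neuronal genes lay higher in lacZ- cells only in part, which bears on the label of that sort. Of 14 tested genes of neuronal identity 11 had a negative difference (median -1.02), Elavl2 and Lrrn3 were wholly higher in lacZ- cells and none was called. Elavl2, a neuronal RNA-binding protein, stood at 76.6, 53.1, 52.9 and 119 CPM against 0 to 46.5 CPM. Its relative Elavl3 overlapped at 305, 149, 168 and 527 CPM against 13.4 to 244 CPM, and the adhesion protein Cntn1 differed by -0.82 ± 0.57. Ncam1, which astrocytes also express, lay in the other direction by 0.48 ± 0.26. In the cytoskeleton and axon list 17 of 20 tested genes had a negative difference (median -0.60), and the neuronal tubulin Tubb3 stood at 524, 688, 1262 and 679 CPM against 46.4 to 1255 CPM, so its sorts overlapped. The 3 lacZ+ libraries of the first run, at 464, 65.3 and 46.4 CPM, lay below all lacZ- libraries, and the 3 of the second run did not. Dpysl3, a regulator of growth cones, differed by -0.57 ± 0.40.

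Most synaptic and channel genes overlapped between the sorts. Of 21 tested genes of vesicles and release 15 had a negative difference (median -0.49), of 20 postsynaptic genes 13 had one (median -0.41) and of 13 excitability genes 12 had one (median -0.45). Over all genes tested 42.0% had a positive difference and the median was -0.15. Rab3a and Cplx2, which act in vesicle release, differed by -0.51 ± 0.43 and -0.49 ± 0.49, and Nlgn2, an adhesion protein of inhibitory synapses, by -0.50 ± 0.39. The potassium channel Kcnc1 stood at 77.2, 77.9, 36.4 and 138 CPM against 8.21 to 57.9 CPM, and the sodium channel Scn8a differed by -0.55 ± 0.54. In the first run of library numbers alone the medians of these lists were -1.02, -0.56 and -1.89. Cacna1b, a presynaptic calcium channel, was wholly higher in lacZ- cells at 9.84, 10.9, 9.22 and 21.4 CPM against 0 to 8.24 CPM. Dlg4, the postsynaptic scaffold PSD-95, was wholly higher in lacZ+ cells at 26.6 to 58.2 CPM against 19.7, 14.6, 9.70 and 22.6 CPM. The DESeq2 calls in these lists also lay higher in lacZ+ cells: Atp1b1, a sodium pump subunit, was wholly higher in lacZ+ cells (363 to 925 CPM against 221, 290, 261 and 181 CPM), and Gabra2, a GABA receptor subunit, differed by 1.43 ± 0.44.

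Genes of intermediate progenitors and newborn neurons had a median of -1.06, with 8 of 9 tested members negative. Neurog2, the proneural factor of the cortex, stood at 23.3, 55.3, 31.5 and 31.9 CPM in lacZ- libraries and between 0 and 10.0 CPM in lacZ+ libraries, of which most had no read, and like Hes6 it was a DESeq2 call. Sox11, a factor of young neurons, overlapped at 1140, 615, 514 and 2350 CPM against 26.7 to 1003 CPM. The 22 tested factors of cortical projection neurons had a median of -0.29 and none was wholly higher in either sort, with Pou3f2 at -0.66 ± 0.40 and Rorb, a layer 4 factor, at 0.74 ± 0.40. Among immediate early genes (16 tested, median -0.45) Nr4a1 differed by -1.53 ± 0.71 and Egr1 by -0.39 ± 0.27, and dissociation of tissue is known to induce such genes.

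**Figure D4:**
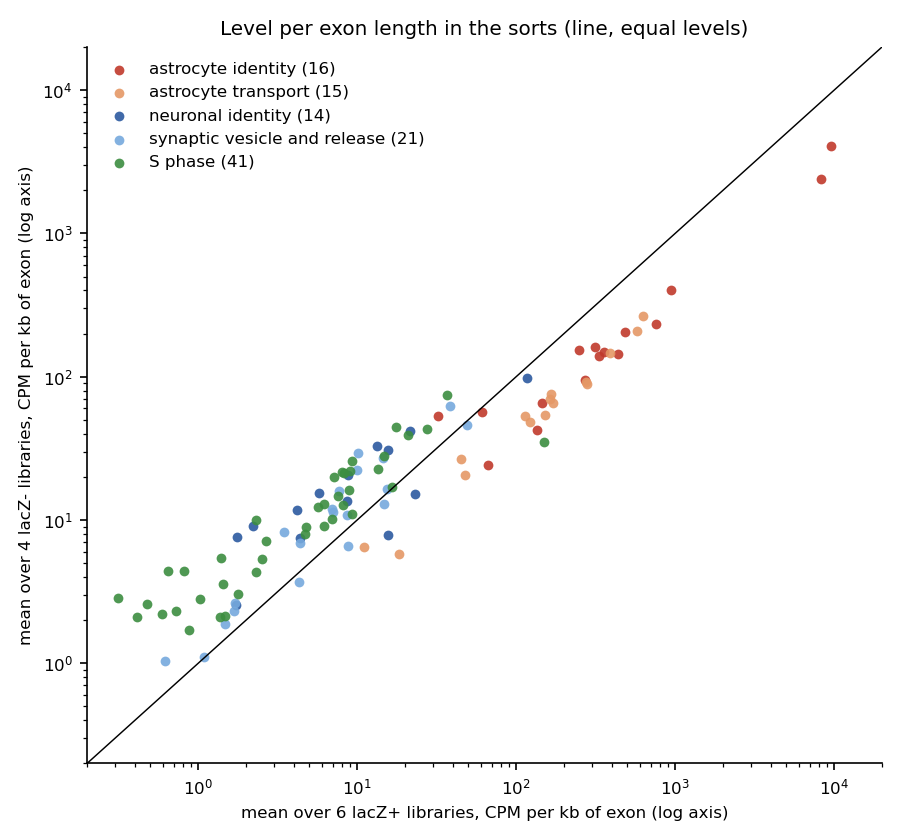
Mean level of each tested member of 5 lists in lacZ+ libraries (x axis, n = 6) and lacZ- libraries (y axis, n = 4), in CPM per kilobase of exon on log axes, with a line of equal levels. Most astrocyte genes (red, orange) lie below the line yet sit towards the top right in both sorts. Most neuronal, synaptic and S phase genes lie on or above the line at lower levels, and Uhrf1 of the S phase list is among the exceptions below it.

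Within the lacZ- libraries both astrocyte lists lay at higher levels than the neuronal lists. Per kilobase of exon, the median level over the lacZ- libraries was 146 CPM for the astrocyte identity list and 65.2 CPM for the astrocyte transport list, beside 14.4 CPM for neuronal identity, 10.8 CPM for synaptic vesicle genes, 47.4 CPM for the neuronal cytoskeleton and axon list and 55.5 CPM for factors of intermediate progenitors and newborn neurons. In lacZ+ libraries these medians were 321, 163, 8.64, 7.05, 36.1 and 49.4 CPM per kilobase. The median astrocyte identity gene stood in lacZ- cells at 42.2% of its mean in lacZ+ cells and the median transport gene at 39.9%, with Apoe at 29.0%, Aqp4 at 33.0% and Gfap at 45.1%. Summed over the list, astrocyte identity genes gave 25112 to 82586 CPM in lacZ+ and 9932 to 23911 CPM in lacZ- libraries, which did not overlap. Neuronal identity genes gave 1776 to 3139 CPM and 1909 to 3737 CPM, which overlapped. The lacZ- libraries are therefore described here by their sort and not as pure neurons. In bulk libraries a smaller number of cells of a type and less RNA per cell cannot be told apart.

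**Figure D5:**
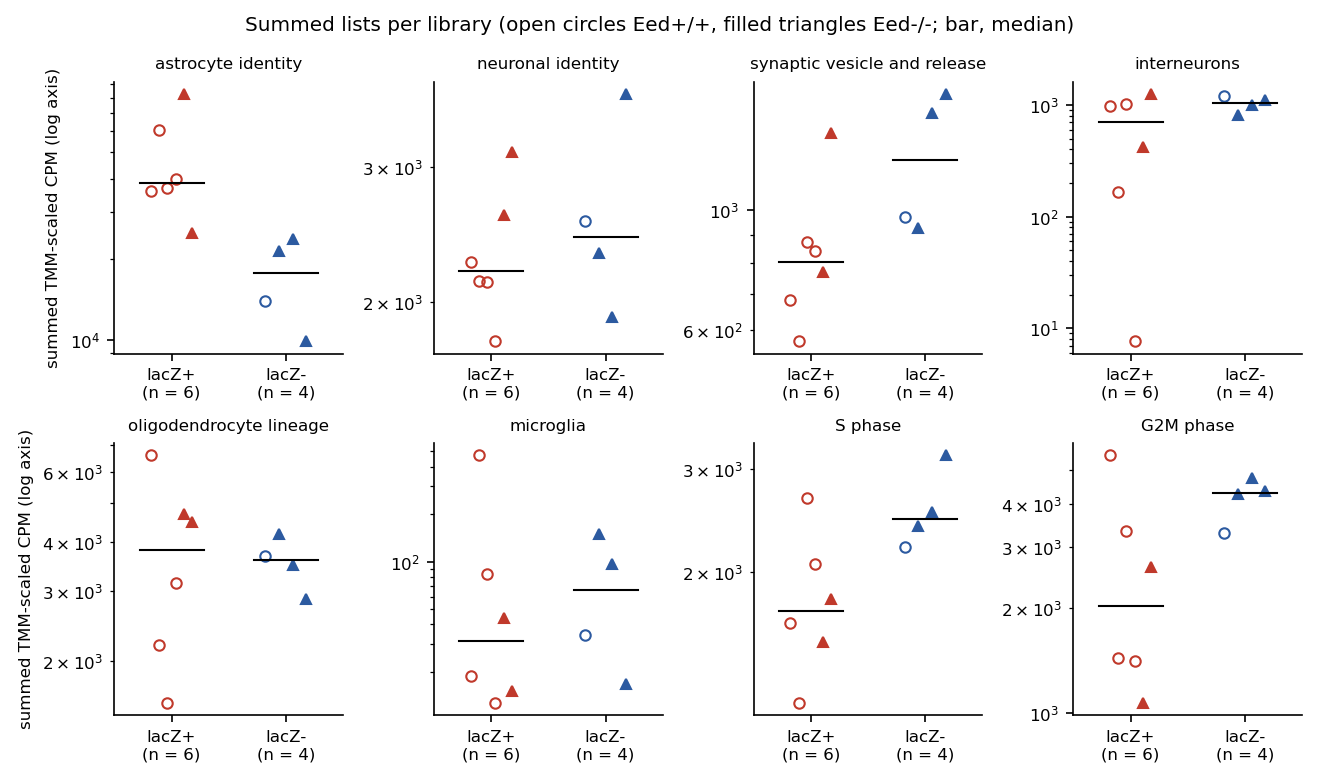
Summed TMM-scaled CPM of 8 lists per library on log axes, lacZ+ in red (n = 6) and lacZ- in blue (n = 4), open circles for Eed+/+ and filled triangles for Eed-/-, with a bar at the median. The sorts are parted for astrocyte identity and overlap for the other 7 lists, among them neuronal identity, microglia and G2M phase.

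Markers of other cell types were present in both sorts, those of the oligodendrocyte lineage at sums like those of neuronal identity. Oligodendrocyte lineage genes summed to 1570 to 6598 CPM in lacZ+ and 2865 to 4172 CPM in lacZ- libraries, and their median per kilobase of exon was 41.8 and 34.5 CPM. Olig1, a factor of that lineage, stood between 1116 and 3239 CPM against 1276, 2596, 2573 and 1066 CPM. Olig2 differed by -0.78 ± 0.45, and Mbp, a myelin protein, ran from 0.357 to 2012 CPM in lacZ+ libraries. Genes of interneurons, which in the neocortex come mainly from outside the Emx1 lineage while some of the olfactory bulb come from within it, summed to 7.66 to 1258 CPM and 811 to 1198 CPM, with Dlx1 at 0 to 181 CPM against 186, 136, 129 and 187 CPM and Dlx2 at 0 to 332 CPM against 199, 258, 408 and 213 CPM. Microglia genes summed to 12.8 to 471 CPM and 16.8 to 150 CPM with 2 of 10 members tested. Endothelial and pericyte genes summed to 19.2 to 146 CPM and 30.7 to 52.4 CPM, erythroid genes to 0 to 5.33 CPM and 0 to 26.9 CPM, and ependymal genes to 0 to 33.1 CPM and 6.73 to 20.9 CPM. Sorting for GFP in Emx1-Cre MADM mice should leave out microglia, endothelial and blood cells. The part of these cell types in the differences above was not tested. The primary cilium list (23 tested) had a median of 0.08, which turned to -0.48 in the first run of library numbers alone.

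The difference between the sorts was then compared between genotypes. Within genotypes it rested on 4 against 1 libraries (Eed+/+) and 2 against 3 libraries (Eed-/-). In that order the log2 difference was 1.80 ± 0.63 and 1.53 ± 0.45 for Aqp4. For Gfap it was 1.5 ± 0.75 and 1.48 ± 0.54, for Lrrn3 -1.60 ± 0.93 and -1.58 ± 0.90, for Npm1 -0.78 ± 0.38 and -0.89 ± 0.34, and for Apoe 2.07 ± 0.80 and 1.77 ± 0.56. Over 11650 genes edgeR called 0 interactions of genotype with cell type, with 255 at an unadjusted p under 0.05, and DESeq2 called 4. With 1 Eed+/+ lacZ- library these tests had little to rest on.

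Eed itself, the deleted gene, was counted over all its exons, so reads outside the deleted part remain. It stood at 42.7, 72.8, 36.9 and 26.2 CPM in Eed+/+ and at 16.5 and 13.3 CPM in Eed-/- lacZ+ libraries, without overlap (two-sided exact permutation p 0.133, the smallest that 4 against 2 libraries allow). In lacZ- libraries it stood at 62.7 CPM in Eed+/+ and at 15.3, 35.9 and 30.7 CPM in Eed-/- cells (exact p 0.5, the smallest that 1 against 3 allow). Between the sorts Eed differed by -0.71 ± 0.52. Its partners in the complex lay in the same direction, with Ezh2 at -0.65 ± 0.43 and Suz12 at -1.15 ± 0.63, and none passed the test.

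Restricting the comparison to the first run of library numbers, 3 lacZ+ against 4 lacZ- libraries, widened the difference of many genes but not of all: Npm1 went from -0.84 to -0.79. edgeR then called 66 genes higher in lacZ+ and 11 higher in lacZ- cells, among them Aqp4 (1.99, adjusted p 0.0462), and 58 of these 77 genes were among the 247 DESeq2 calls over all 10 libraries. The list medians became 1.84 for astrocyte identity, 1.75 for transport, -2.53 for neuronal identity, -2.53 for S phase and -0.64 for ribosomal proteins, beside -0.28 over all genes. Further lists moved by more than 1.5 times, to -3.27 for factors of intermediate progenitors and newborn neurons, -1.52 for the neuronal cytoskeleton, -1.88 for G2M and 0.92 for cholesterol synthesis. Interneuron genes moved to -2.30 (from -0.68), genes of Polycomb repressive complex 2 to -1.40 (from -0.70), cortical projection neuron factors to -0.62, radial glia factors to 0.32, Notch signalling to 0.62 and nucleolar genes to -0.79. The respiratory chain and the oligodendrocyte lineage did not widen, at -0.0036 and -0.38. Since the lacZ- libraries all came from the first run, the second run cannot give a comparison of its own.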

How the data were processed

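RNA of sorted cells was made into libraries with Smart-Seq v2 and sequenced on an Illumina HiSeq. The authors aligned reads to the mouse genome (GRCm38/mm10) with STAR and deposited its raw read counts per gene for each library. The column without strand was used, since the protocol does not mark strand. The 4 lines of totals were left out, and 53274 of 53379 gene identifiers were matched to a symbol.

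Libraries were grouped by their labels, and 1 library whose labels disagreed entered no comparison. Counts were filtered and TMM-scaled with edgeR 4.0.16 in R 4.3.3 and tested by its quasi-likelihood test with terms for genotype and cell type, adjusted by Benjamini-Hochberg at 0.05. DESeq2 1.42.0 and limma 3.58.1 were alternatives, beside other filters, scalings, terms and samples. The fit with terms for genotype and cell type was tested on simulated counts in edgeR, DESeq2 and limma. The interaction, replicate block, library-number run, permutation and outlier tests were not run on simulated data. Totals per library limit low genes: 3 reads equal 1.07 to 2.85 CPM, which covers counting error only.

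The libraries, the 32 gene lists and the tests were chosen with earlier results of these data known. Since no gene passed, named genes were taken, after their values were seen, as the 10 with the smallest p and the 6 with the highest mean CPM in the higher sort per direction among genes without overlap, and up to 4 abundant members per list.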

Additional observations from a re-analysis of the deposited data

Results flagged for a closer look

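The summed Notch signalling list of Eed-/- lacZ+ replicate 5 stood at 1093 CPM, apart from the other 5 lacZ+ libraries at 2004 to 2513 CPM. On the log2(CPM + 1) scale its gap to the nearest library was 0.728 of the range of the group, above Dixon's 95% critical value for 6 libraries. It was the only such library among 66 groups of values examined, of which chance alone marks about 5%.

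DESeq2 called an interaction of genotype with cell type for 4 genes, each as a difference in log2 between the effect in Eed-/- and that in Eed+/+ cells, where edgeR called 0. Eomes, a factor of intermediate progenitors, had 23.7 (adjusted p 0.0059), with 194 CPM in Eed-/- lacZ+ replicate 5, 0 in the other lacZ+ libraries, and 46.1, 8.0, 32.5 and 84.6 CPM in lacZ- libraries. This value therefore rested on 1 library, and edgeR gave 10.6 (adjusted p 0.9997) for the same interaction. Gpatch4 had -8.90 (adjusted p 0.037), with 13.6, 8.57, 30.0 and 38.3 CPM in Eed+/+ and 0 in both Eed-/- lacZ+ libraries, and 11.9, 41.5, 33.0 and 31.3 CPM in lacZ- libraries. Nde1, which acts in mitosis of progenitors, had -3.79 (adjusted p 0.037), with 119, 96.4, 90.8 and 114 CPM in Eed+/+ and 9.54 and 24.7 CPM in Eed-/- lacZ+ libraries, and 35.2, 72.8, 102 and 56.8 CPM in lacZ- libraries. Nkd1, an inhibitor of Wnt signalling, had -5.33 (adjusted p 0.0034), with 56.3, 89.2, 82.6 and 44.1 CPM in Eed+/+ and 6.36 and 2.85 CPM in Eed-/- lacZ+ libraries, and 23.8, 80.8, 78.6 and 38.8 CPM in lacZ- libraries. The Eed+/+ lacZ- group held 1 library in each of these. For Gpatch4, at 0 in both Eed-/- lacZ+ libraries, the size of the value depends on the fit, and edgeR gave -9.94.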

How the results depend on the processing

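edgeR called 0 genes with all 10 libraries, and also with RLE size factors, a mean count above 10, no genotype term, all 15 labelled libraries or Eed-/- libraries alone. Calls appeared without a filter on low counts (127, of which 109 were higher in lacZ+ and 18 in lacZ-), in DESeq2 (247, 180 and 67), in limma-voom with quality weights (1 higher in lacZ+), with a term for the library-number run (1 higher in lacZ+) and in the first run alone (77, 66 and 11). Leaving out 1 library at a time gave 0 to 75 calls, 0 to 74 higher in lacZ+ and 0 to 1 higher in lacZ-, and calls appeared only without Eed-/- lacZ+ replicate 5.

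No source states that equal replicate numbers mark 1 animal across the sorts. Deviations of same-numbered libraries correlated at -0.03 and 0.13 in the 2 pairs with both libraries used, which does not show whether the numbers pair the samples. With genotype and replicate number as a replicate block, limma-voom called 14 genes (12 and 2, intra-block correlation 0.35), all among the DESeq2 calls, and edgeR over 2 pairs called 0.

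Aqp4 passed without the filter (1.59), in DESeq2 (1.65), with the block (1.6) and in the first run (1.99). Leaving out 1 library at a time moved it over 1.48 to 1.83, and it passed without Eed-/- lacZ+ replicate 5 (1.83). Gfap passed without the filter (1.44) and in DESeq2 (1.51), and Npm1 in DESeq2 (-0.82). Over all 15 libraries Aqp4 was 0.86 and Gfap 0.92. Lrrn3, at -1.59 with all 10 libraries, ranged from -2.50 without Eed-/- lacZ+ replicate 5 to -1.17 without Eed-/- lacZ+ replicate 2. DESeq2 calls ranged from 21 to 458 (higher in lacZ+) and from 1 to 501 (higher in lacZ-) with 1 library left out, were 582 and 936 in the first run, and those higher in lacZ- were 223 with the run as a term.

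Genes wholly higher in lacZ+ numbered 135 without scaling. They numbered 1052 in the first run, 1119 in Eed-/- libraries and 3 over all 15 libraries, and 227 to 467 with 1 library left out, with 467 without Eed-/- lacZ+ replicate 5 and 322 without Eed-/- lacZ- replicate 2. Those wholly higher in lacZ- numbered 381 without scaling, 1162, 1928 and 46 in the same sets, and 273 to 440 with 1 library left out, with 370 without Eed+/+ lacZ+ replicate 4, 440 without Eed-/- lacZ+ replicate 5, and 364 and 396 without Eed-/- lacZ- replicates 2 and 3. Fewer libraries make overlap rarer by construction.

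The interaction had 1 call without the filter, 4 in DESeq2 and 0 to 1 with 1 library left out. It could not be run without the Eed+/+ lacZ- library. Over all 15 libraries Ncam1 turned to -0.13, and Tubb3, which ranged from -1.96 to 0.31 with 1 library left out, turned to 0.31 without Eed-/- lacZ+ replicate 2. For these the cause was not tested. RLE scaling moved the median of all genes by 0.02, and without scaling it was -0.32.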

Other observations

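The library whose labels named both cell types had few reads on genes (221456). It held 62 reads of Aqp4 (174 CPM), 66 of Npm1 (185 CPM) and none of Gfap or Lrrn3.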
